A study of Homo sapiens with 6 samples.

Results

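Antisense RNAs are transcripts annotated on the strand opposite to another gene, usually a protein-coding one. The 124 described here are the better expressed ones of T3M4, an established human pancreatic ductal adenocarcinoma cell line. They are the rows of the deposited count table annotated as antisense, without the small nucleolar RNA host genes and without EPB41L4A-AS1 and ZFAS1, chosen by a mean level over all 6 libraries of at least 4 CPM (CPM is counts scaled to the same total in every library, here from column totals). Of 58735 genes in the table, 5583 were annotated as antisense; 6 of these were left out by name and 5453 lay under the limit. The rule used the mean over all libraries and not the difference between the groups. By the rule's mean, NCK1-DT at 4.02 CPM and NKILA and MZF1-AS1, both at 4.01 CPM, lay just inside the limit, and TM4SF19-AS1 and AL031714.1, both at 3.98 CPM, and FBXL19-AS1 at 3.95 CPM lay just outside.

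The groups were 3 libraries whose genotype label says MUC16 knockout (KO below) and 3 whose titles say WT and whose genotype label says that MUC16 is expressed (WT below). Both came from untreated T3M4 cells in medium with serum, and they differ in the labels by MUC16 alone. MUC16 is a very large membrane-bound mucin, and the design asks how its loss alters gene expression. The labels do not say how the knockout was made, whether it is 1 clone or a pool, or whether each library is a culture of its own, so the p-values cover no more than the spread among these 6 libraries, which may be technical. MUC16 itself went against the labels, at 15.2 ± 4.29 CPM in KO libraries and 4.37 ± 0.866 CPM in WT libraries (SD, n = 3 each), so KO and WT are used below as the names of the labelled libraries and each direction is a direction between those labels. Total gene counts ran between 19088927 and 28612621 in KO libraries and between 22963814 and 27647455 in WT libraries. The 6 epithelial keratin and adhesion markers lay between 267.5 and 2244 CPM in KO libraries and between 195.1 and 1339 CPM in WT libraries, and the 4 acinar markers at no more than 0.0448 CPM in either group.

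Many antisense genes start next to the promoter of a coding gene and run away from it, so that a single open promoter region serves both directions. Others lie within an intron of the coding gene, or meet it at the far ends, and some are known to act on the neighbouring gene in cis while others act elsewhere or have no known function. Because such pairs share a locus, the first thing to ask of an antisense RNA that differs is what its coding partner does, and each RNA was therefore set beside the coding gene on the opposite strand that shares most bases with it. A partner was found for 115 of the 124 RNAs, 112 different genes in all, and 9 had none. More than 1 coding gene of the opposite strand overlapped 28 of the RNAs. By position, 42 lay head to head with the partner, with the starts nearest to each other, 34 tail to tail, 27 wholly inside the span of the partner and 12 around it.

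Promoter sequences were found in RefSeq for 62 of the 124 RNAs, as windows of 250 bases before and 50 bases after the annotated start. Below are the windows of 4 RNAs that lie head to head with their partner, differed between the groups, and whose RefSeq start lies within 10 bases of the start in the annotation of the files. They are shown as the promoters of head to head RNAs whose levels differed; none of the 4 windows shares bases with the RefSeq window of its partner. Each is written 5′ to 3′ along the strand of the antisense RNA, and capitals mark matches on either strand. These are the GC box, which reads GGGCGG, the core of sites for ETS-family factors, which reads CCGGAA, and the CCAAT box. None of the marked matches overlap.

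NNT-AS1 (RefSeq, GRCh38.p14, chr5:43603181-43603480, minus strand): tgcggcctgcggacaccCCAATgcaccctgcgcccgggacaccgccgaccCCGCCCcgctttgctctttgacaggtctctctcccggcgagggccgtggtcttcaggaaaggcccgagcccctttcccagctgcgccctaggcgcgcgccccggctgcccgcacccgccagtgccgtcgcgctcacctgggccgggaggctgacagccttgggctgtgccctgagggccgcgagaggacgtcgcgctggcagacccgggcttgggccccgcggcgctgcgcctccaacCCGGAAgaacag

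GATA2-AS1 (RefSeq, GRCh38.p14, chr3:128488953-128489252, plus strand): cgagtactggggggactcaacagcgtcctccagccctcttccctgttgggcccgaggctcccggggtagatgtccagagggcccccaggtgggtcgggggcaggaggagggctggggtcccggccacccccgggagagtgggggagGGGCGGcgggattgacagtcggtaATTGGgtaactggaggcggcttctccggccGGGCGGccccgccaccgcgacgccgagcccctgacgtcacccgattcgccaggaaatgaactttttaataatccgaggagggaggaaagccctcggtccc

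ZNF503-AS2 (RefSeq, GRCh38.p14, chr10:75401278-75401577, plus strand): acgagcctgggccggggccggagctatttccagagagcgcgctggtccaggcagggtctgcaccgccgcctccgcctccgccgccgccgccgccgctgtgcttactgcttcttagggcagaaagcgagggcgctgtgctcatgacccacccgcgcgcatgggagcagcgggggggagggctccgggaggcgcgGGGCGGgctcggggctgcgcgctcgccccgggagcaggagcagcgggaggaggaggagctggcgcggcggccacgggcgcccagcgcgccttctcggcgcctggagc

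NKILA (RefSeq, GRCh38.p14, chr20:57709933-57710232, plus strand): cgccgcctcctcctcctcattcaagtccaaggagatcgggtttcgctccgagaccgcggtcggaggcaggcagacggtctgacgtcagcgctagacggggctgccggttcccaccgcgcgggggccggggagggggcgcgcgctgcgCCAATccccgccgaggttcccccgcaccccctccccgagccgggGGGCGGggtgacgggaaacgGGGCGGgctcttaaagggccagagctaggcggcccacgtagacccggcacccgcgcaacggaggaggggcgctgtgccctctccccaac

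All 4 windows hold a GC box, and the windows of NNT-AS1, GATA2-AS1 and NKILA also hold a CCAAT box. The window of NNT-AS1 alone among the 4 holds the ETS core, CCGGAA, near its end. GC content was 74.0%, 68.3%, 76.7% and 73.7% in the windows of NNT-AS1, GATA2-AS1, ZNF503-AS2 and NKILA, against a median of 64.3% over the 62 windows of these antisense RNAs and 58.7% over all 35116 RefSeq windows. A GC box was present in 56.5% of the 62 windows and 45.0% of all windows, and CCGGAA in 22.6% and 17.3%. CCAAT was present in 38.7% of the 62 windows and 34.6% of all. The TATA box, TATAAA, was rarer in the 62 windows, at 4.84% against 11.5% of all, as was the GATA motif AGATAA, at 4.84% against 10.3%, while the E-box CACGTG was at 6.45% and 7.26%. These are shares of windows with a match on either strand and do not show binding. In 7 of the 23 head to head pairs with a window for both genes the windows shared bases, and the 4 printed are not among these.

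The antisense RNAs took a small part of each library. They held 0.139%, 0.143% and 0.137% of all counts in the KO libraries, against 0.124%, 0.127% and 0.125% in the WT libraries, so the groups did not overlap. These are shares of raw counts. The TMM scaling factors used for levels below were 1.02 to 1.03 in KO and 0.972 to 0.974 in WT libraries, which narrows the gap. All antisense genes of the table shifted the same way, at 0.266% to 0.279% in KO libraries and 0.240% to 0.242% in WT libraries. In bulk RNA, fewer cells with an RNA and less of it per cell cannot be told apart. Single RNAs had between 50 and 4184 counts in a library, where 1 count is worth 0.0349 to 0.0524 CPM, and the median of the rule's mean was 6.75 CPM with 38 RNAs at 10 CPM or more. By counts not scaled for length, FGD5-AS1 stood above all others with 134.5 CPM by the rule's mean, followed by AFAP1-AS1 with 86.9 CPM and by OTUD6B-AS1 and HCG18, both with 31.4 CPM. Per kilobase of exon not shared with an exon of any other gene, on either strand, the order was another: AC099850.3, which has 224 such bases, was at 59.5 CPM in KO libraries and 80.3 CPM in WT libraries. FGD5-AS1 was at 30.3 CPM per kilobase in KO libraries and 25.6 CPM in WT libraries, and RAET1E-AS1 and AC136475.3 were at 25.6 and 22.1 CPM per kilobase in KO libraries. AFAP1-AS1 was at 10.7 CPM per kilobase in KO libraries on this scale.

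Levels below are CPM scaled by TMM factors, and a gene is called where edgeR's quasi-likelihood test gave an adjusted p under 0.05 (Benjamini-Hochberg over the 16655 genes tested). Of the 124 antisense RNAs, 43 were higher and 21 lower in KO libraries, 34.7% and 16.9% of them, and 60 were not called. Over all genes tested 26.7% were higher and 25.9% lower, 52.6% in all, which is close to the 51.6% of the antisense RNAs. The split moves with the scaling: with upper-quartile factors 5125 genes were higher and 3505 lower, against 4442 and 4317 with TMM factors, and 49 of the antisense RNAs were higher and 18 lower. Among 9735 genes in the same range of levels, 59.2% were called, 27.5% higher and 31.7% lower, and among all 899 antisense genes tested 28.3%, with 20.0% higher and 8.23% lower. The share called was thus near that of all genes tested, under that of genes in the same range of levels and above that of all antisense genes tested. Of the 64 calls, 43 were in the higher direction. The median of the 124 log2 fold changes, KO over WT, was 0.11, against -0.03 for genes in the same range of levels and 0.15 for all antisense genes tested. The groups did not overlap in 73 of the 124, or 58.9%, against 59.0% of all genes tested.

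The range of called changes was wide on the higher side. A log2 fold change of 1.71 for ELF3-AS1 was the highest and one of -0.86 for SENCR the lowest. Of the called RNAs, 8 were at least 2-fold higher in KO libraries and 0 at least 2-fold lower. The same count was not made over all genes tested, so it has no background here. All antisense genes tested leaned the same way, with 20.0% called higher and 8.23% lower at any size of change. Leaving out each library in turn, 48 of the 64 calls held every time, 34 of them higher and 14 lower, and none changed direction. The authors' deposited table called 52 of the 124 RNAs, 36 higher and 16 lower, and all 52 were called in the same direction here. Both rest on the same counts of the same libraries, so this is no independent check. The share of all genes called in that table was not counted.

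**Figure D1:**
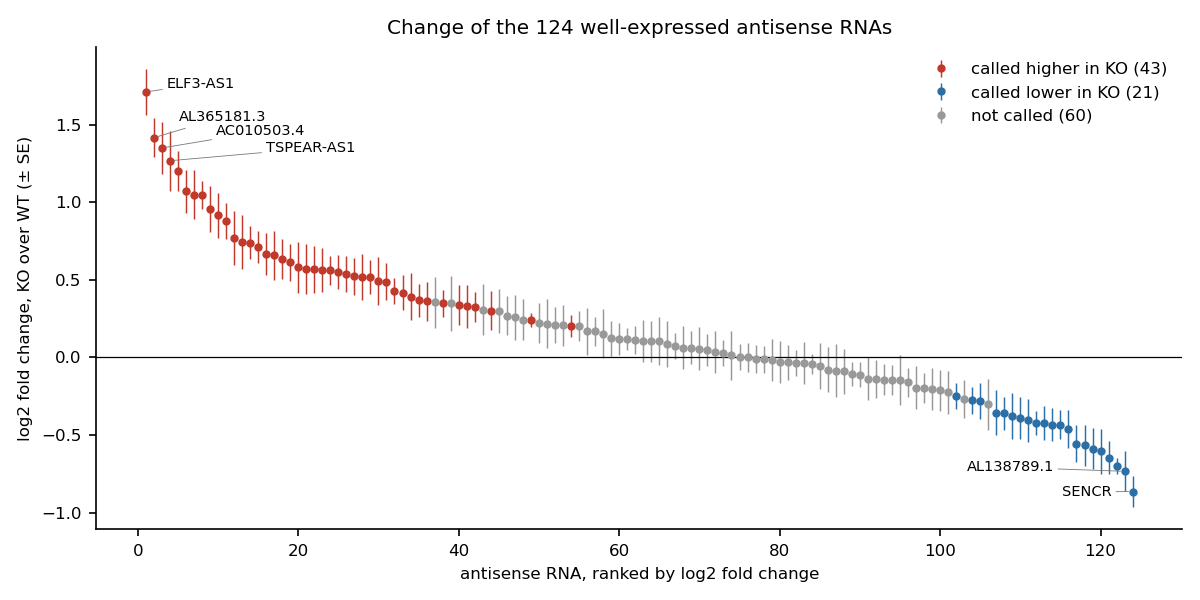
Log2 fold change, KO over WT, of the 124 antisense RNAs in order of size, with bars for the standard error. Red points are the 43 called higher in KO libraries, blue points the 21 called lower and grey points the 60 not called; the higher end reaches 1.71 and the lower end -0.86.

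ELF3-AS1 differed most. It lies on the minus strand of chromosome 1 (ENSG00000234678, GRCh38, 201995696 to 202010463), starting within ELF3, which encodes an epithelial ETS-family transcription factor, and running into RNPEP, the gene for an aminopeptidase. It had 13.1, 12.4 and 14.8 CPM in the KO libraries, against 2.77, 4.68 and 4.93 CPM in the WT libraries. All 3 KO libraries thus lay above all WT libraries, with a log2 fold change of 1.71 ± 0.15 (SE, adjusted p = 1.28e-09 by edgeR's quasi-likelihood test). RNPEP, which shares most bases with it, was slightly higher in KO libraries at a log2 fold change of 0.22, while ELF3 averaged 147.5 ± 5.56 CPM in KO libraries and 51.8 ± 6.86 CPM in WT libraries, a log2 fold change of 1.51. The antisense RNA and the coding gene in which it starts were therefore both higher in KO libraries. About 76.7% of the exon bases of ELF3-AS1 lie in introns of RNPEP and the same share overlaps no exon of another gene on either strand.

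AL365181.3, on chromosome 1 inside the gene of the brain proteoglycan brevican (BCAN), was next. It had 13.2, 12.1 and 13.9 CPM in the KO libraries, against 4.40, 4.38 and 6.0 CPM in the WT libraries, a log2 fold change of 1.42. BCAN itself was low, at 2.17 ± 0.406 CPM in KO libraries and 1.5 ± 0.329 CPM in WT libraries, and was not called. AC010503.4, inside DENND1C, the gene of an activator of Rab GTPases, averaged 7.56 ± 0.671 CPM in KO libraries and 2.93 ± 0.908 CPM in WT libraries, and DENND1C was higher as well, with a log2 fold change of 0.95 beside 1.35 for the antisense RNA.

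TSPEAR-AS1 and TSPEAR-AS2 lie next to each other on the plus strand of chromosome 21, at 44506807 to 44516575 and 44517216 to 44525952, both within TSPEAR, a gene of tooth and hair development. TSPEAR-AS1 had 4.66, 6.54 and 6.49 CPM in the KO libraries, against 1.90, 2.19 and 3.41 CPM in the WT libraries. TSPEAR-AS2 had 7.16, 8.01 and 6.28 CPM in the KO libraries, against 5.73, 6.58 and 6.0 CPM in the WT libraries, and here the groups overlapped. The first was called higher with a log2 fold change of 1.27 and the second was not called with 0.22, although the difference between the neighbours was not itself tested. TSPEAR had a log2 fold change of 1.3, close to that of TSPEAR-AS1, and averaged 2.31 ± 0.464 CPM in KO libraries and 0.926 ± 0.326 CPM in WT libraries.

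LUCAT1, known as a stress-induced RNA of lung and other cancers, had 26.5, 30.3 and 24.9 CPM in the KO libraries, against 12.8, 14.4 and 12.3 CPM in the WT libraries. The lowest KO library was well above the highest WT library, and the log2 fold change was 1.04 ± 0.09 (SE, adjusted p = 8.45e-10 by edgeR's quasi-likelihood test). Its partner by position, the adhesion receptor gene ADGRV1, meets it tail to tail and shares 109604 bases of its span. It was higher too, by 0.75 on the log2 scale. HOXA-AS2, from the HOXA cluster of body-axis transcription factor genes, averaged 7.66 ± 0.882 CPM in KO libraries and 3.64 ± 0.13 CPM in WT libraries. HOXA3, whose span holds it, had a log2 fold change of 0.37, and HOXA4, which it also overlaps, is listed with no count in any library.

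Of the RNAs with the highest levels, FGD5-AS1 was slightly higher in KO libraries and AFAP1-AS1 clearly lower. FGD5-AS1 had 149.1, 144.7 and 142.9 CPM in the KO libraries, against 121.8, 126.0 and 121.4 CPM in the WT libraries, a log2 fold change of 0.24 ± 0.04 (SE, adjusted p = 4.43e-05 by edgeR's quasi-likelihood test). AFAP1-AS1, an RNA much studied in pancreatic and other carcinomas, had 70.9, 68.9 and 60.7 CPM in the KO libraries, against 105.8, 110.9 and 108.1 CPM in the WT libraries, a log2 fold change of -0.70 ± 0.05 (SE, adjusted p = 1.5e-10 by the same test). The groups did not overlap in either RNA. OTUD6B-AS1 and HCG18 were not called, with log2 fold changes of 0.12 and -0.04 and overlapping groups, although OTUD6B-AS1 passed the threshold under upper-quartile scaling with an adjusted p of 0.0465. SH3PXD2A-AS1 was called higher with a log2 fold change of 0.20, but it missed the threshold without KO library 1, WT library 1 or WT library 2, at adjusted p-values of 0.127, 0.0739 and 0.0782 by edgeR's quasi-likelihood test.

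SENCR, an RNA first described in endothelial and smooth muscle cells, was the lowest. It lies inside FLI1, the gene of an ETS-family transcription factor of blood and endothelial cells (chromosome 11, 128691672 to 128696023, minus strand), and 87.5% of its exon bases are in FLI1 introns. SENCR had 8.80, 7.74 and 8.30 CPM in the KO libraries, against 13.8, 15.7 and 15.6 CPM in the WT libraries, a log2 fold change of -0.86. FLI1 had 68.9, 67.2 and 69.6 CPM in the KO libraries, against 148.9, 141.6 and 138.7 CPM in the WT libraries, a log2 fold change of -1.06. Both genes of the locus were thus lower in all KO libraries. The 3 endothelial markers, PECAM1, VWF and CDH5, lay between 0.720 and 17.8 CPM in KO libraries and between 0.264 and 13.9 CPM in WT libraries; their part in this result was not tested.

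The other RNAs at the lower end were AL138789.1, SLC16A1-AS1, AC008735.2, AC006329.1, ENTPD1-AS1 and RUSC1-AS1, with log2 fold changes between -0.73 and -0.56. SLC16A1-AS1 starts 598 bases away from the start of SLC16A1, the gene of the lactate carrier MCT1, and had 6.81, 7.0 and 6.35 CPM in the KO libraries, against 11, 10.1 and 10.4 CPM in the WT libraries. SLC16A1 averaged 127.2 ± 4.25 CPM in KO libraries and 186.4 ± 13.0 CPM in WT libraries, so that the log2 fold changes of the pair were -0.64 and -0.55. AL138789.1 with the cell-cycle gene DEPDC1, and AC008735.2 with the splicing factor gene U2AF2, were lower together with their partners as well. ENTPD1-AS1 runs across several genes, and of these ENTPD1, which encodes the ectonucleotidase CD39, was lower by its own test with a log2 fold change of -0.61, while CCNJ and CC2D2B were not called.

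**Figure D2:**
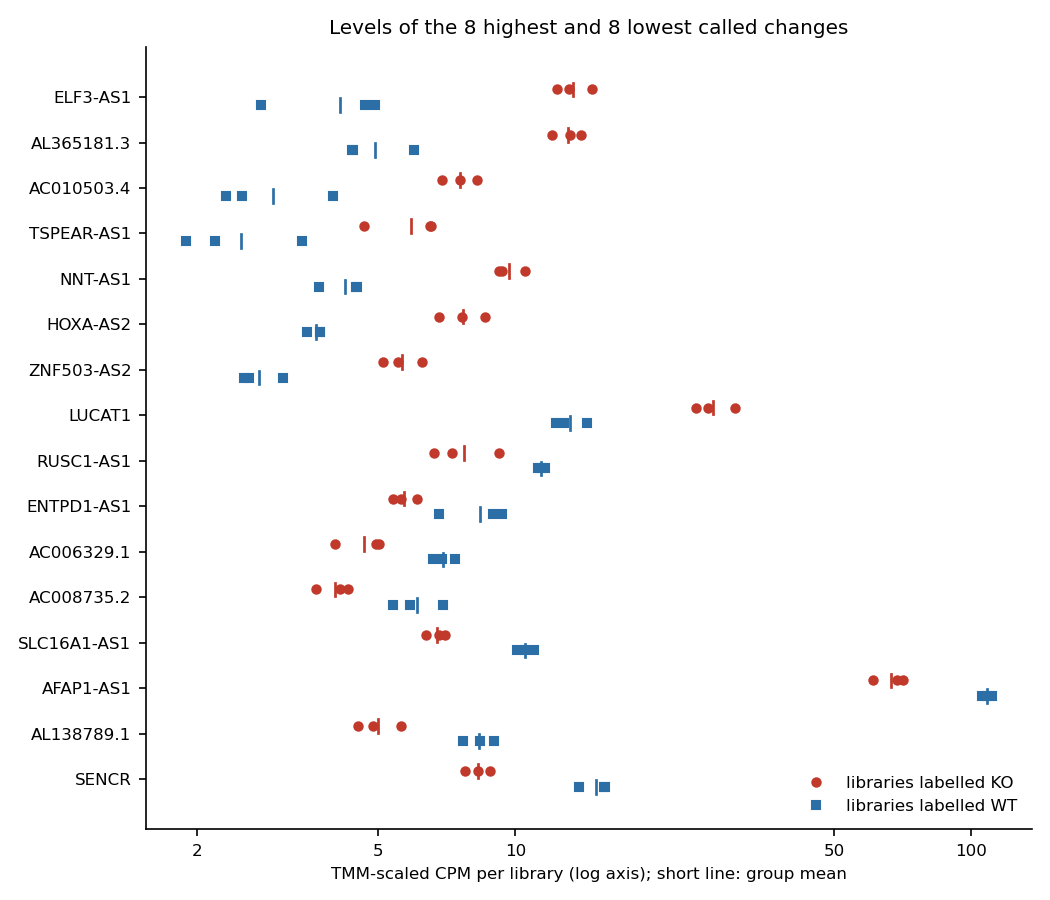
TMM-scaled CPM (log axis) of the 8 antisense RNAs with the highest and the 8 with the lowest called log2 fold changes, 1 point per library and a short line for each group mean, KO in red circles above WT in blue squares. No KO point of these RNAs falls among the WT points of the same RNA.

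Set against their partners, the antisense RNAs split. Partners passed the filter on low counts for 102 RNAs (101 genes) and not for 13, whose partners averaged no more than 0.171 CPM. Of the 101 partners 26 were higher and 34 lower in KO libraries, or 31 and 25 under upper-quartile scaling, and 41 were not called. RNA and partner were both higher in 12 pairs and both lower in 11, and moved in opposite directions in 12, with the RNA higher and the partner lower in 9 and the reverse in 3. Beside a partner that was not called, the RNA was higher in 14 pairs and lower in 6. Beside an RNA that was not called, the partner was higher in 12 and lower in 14, and neither was called in 21. The same counts were not made over all antisense pairs of the table, so they have no background here. Over all genes tested 26.7% were higher and 25.9% lower, so pairs of both kinds would be found among unrelated genes too. Over the 102 pairs the log2 fold changes of RNA and partner had a Pearson correlation of 0.36 and a Spearman correlation of 0.30, as a description of pairs that share libraries and loci.

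Whether an RNA changed by another factor than its partner was tested directly, with both counts of each library in 1 model. The ratio of antisense to partner counts was called higher in KO libraries in 17 of the 102 pairs and lower in 8, which is 24.5% of them, against 16.3% of the 699 antisense pairs tested over the whole table (11.2% higher and 5.15% lower; edgeR's quasi-likelihood test, adjusted over the 699). The median log2 change of the ratio was 0.09 over the 102 pairs and 0.11 over all 699. Of the 25 calls, 14 held without each library in turn, 10 of them higher and 4 lower. The share called depends on the pairs and libraries tested. With a filter of 50 counts in 3 libraries, 38 of 87 pairs were called, or 43.7%, against 42.6% of 197 antisense pairs, so there the share was near the background. Without KO library 1, 16.7% of the 102 pairs and 8.15% of the 699 were called. The shares were 23.5% and 10.7% without KO library 3, and 16.7% and 10.6% without WT library 1. The choice among several overlapping coding genes matters too. With the one of highest mean CPM as partner, the ratio of UBA6-AS1 was called at 0.92, against -0.58 and no call. DHRS4-AS1 was then called at 0.63, against 0.52 and no call. Of RNAs whose first partner was too low to test, FGD5-AS1, LINC00649 and AC009133.1 were called at 0.50, 0.55 and -0.96. RAET1E-AS1, TMEM147-AS1 and ST20-AS1 were not called.

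**Figure D3:**
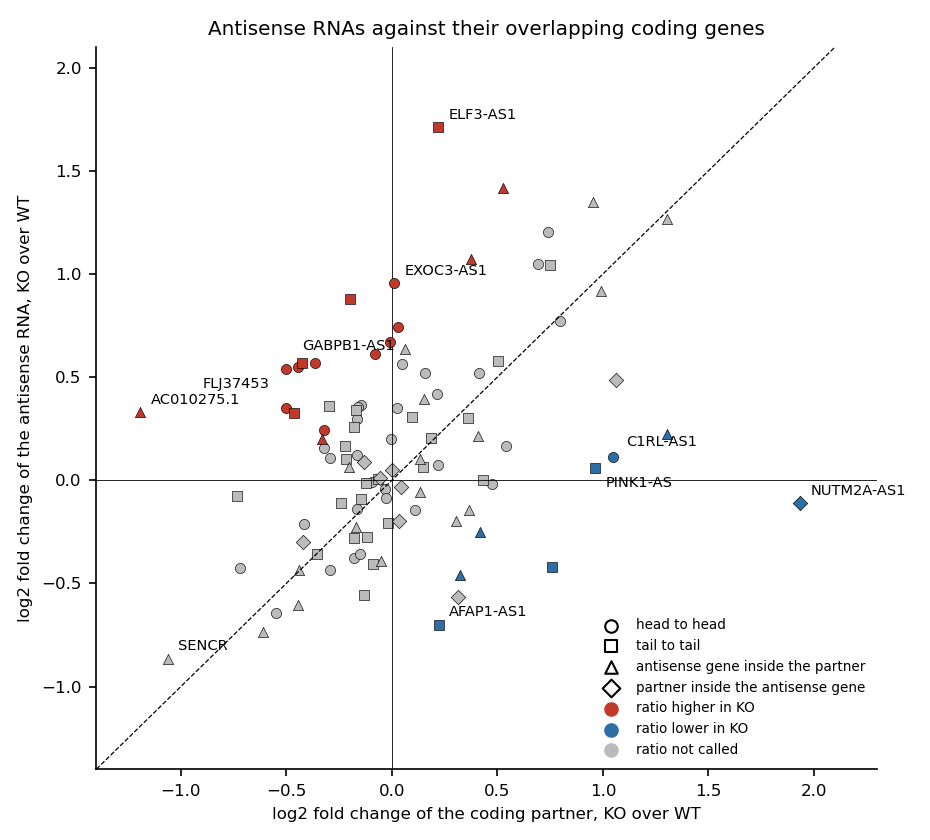
Log2 fold change of each antisense RNA (vertical) against that of its coding partner (horizontal), KO over WT, for the 102 pairs with both tested. Marker shapes give the position class, red and blue the 17 pairs with a higher and the 8 with a lower ratio in KO libraries, and the dashed line equal change; red points lie above that line and blue points below.

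In the 8 pairs with the highest ratio changes the RNA was higher, while the partner was lower in 6, not called for EXOC3 and slightly higher for RNPEP, the partner of ELF3-AS1. ELF3, in which ELF3-AS1 starts, was itself higher by 1.51 on the log2 scale. The ratio of ELF3-AS1 to ELF3 was not tested. AC010275.1, within an intron of CAMK4 on chromosome 5, had 140.7, 121.9 and 165.8 counts per 100 counts of CAMK4 in the KO libraries, against 51.5, 49 and 48.4 in the WT libraries. CAMK4, a calcium and calmodulin-dependent kinase, fell to 4.40 ± 0.282 CPM in KO libraries, against 10.0 ± 0.432 CPM in WT libraries, so most of this ratio change of 1.52 ± 0.23 on the log2 scale (SE, adjusted p = 0.000392 by edgeR's quasi-likelihood test) lay in CAMK4. The antisense RNA alone had a log2 fold change of 0.33 with an adjusted p of 0.047, and missed the threshold by the same test without KO library 1 (0.125), KO library 3 (0.175), WT library 2 (0.130) or WT library 3 (0.118), whereas the ratio held without each library.

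GSEC, an RNA that forms G-quadruplexes in colorectal cancer cells, had 35.8, 38.7 and 34.5 counts per 100 counts of DCPS in the KO libraries, against 18.6, 16.9 and 15.9 in the WT libraries. The RNA had a log2 fold change of 0.88, while DCPS, the scavenger decapping enzyme, was slightly lower at -0.20. FLJ37453 starts 283 bases from SPEN, the gene of a large corepressor needed for X inactivation, and had 4.74, 5.05 and 5.98 counts per 100 counts of SPEN in the KO libraries, against 2.39, 2.54 and 2.74 in the WT libraries. SPEN was lower, at 183.5, 195.1 and 160.9 CPM in the KO libraries, against 249.2, 251.5 and 261.5 CPM in the WT libraries, while FLJ37453 was higher with a log2 fold change of 0.54. The same opposition was found for GABPB1-AS1, higher at 0.55, with GABPB1, a subunit of the ETS-related factor GABP, lower at -0.44.

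NIFK-AS1 and AC016876.1 were each higher at 0.57 on the log2 scale, beside NIFK, a nucleolar partner of Ki-67, at -0.42 and MPDU1, a gene of dolichol-linked sugar use, at -0.36. The call of AC016876.1 by itself was lost without KO library 2 (adjusted p = 0.06 by edgeR's quasi-likelihood test), while its ratio held. NOP14-AS1 with NOP14, a ribosome assembly gene, was a further pair of this kind, named after its values were seen, with 15.4 ± 1.12 CPM in KO libraries and 12.3 ± 1.19 CPM in WT libraries for the RNA and a log2 fold change of -0.46 for NOP14. NOP14-AS1 missed the threshold without WT library 1, with a log2 fold change of 0.24 and an adjusted p of 0.0528 by edgeR's quasi-likelihood test, while its ratio held. EXOC3-AS1 starts 2 bases from the start of EXOC3, a gene of the exocyst that tethers secretory vesicles. It had 5.78, 5.95 and 6.11 CPM in the KO libraries, against 2.96, 2.79 and 3.50 CPM in the WT libraries, while EXOC3 had 131.1 ± 3.29 CPM in KO libraries and 130.1 ± 3.45 CPM in WT libraries. The ratio changed by 0.95 on the log2 scale with the partner hardly different.

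**Figure D4:**
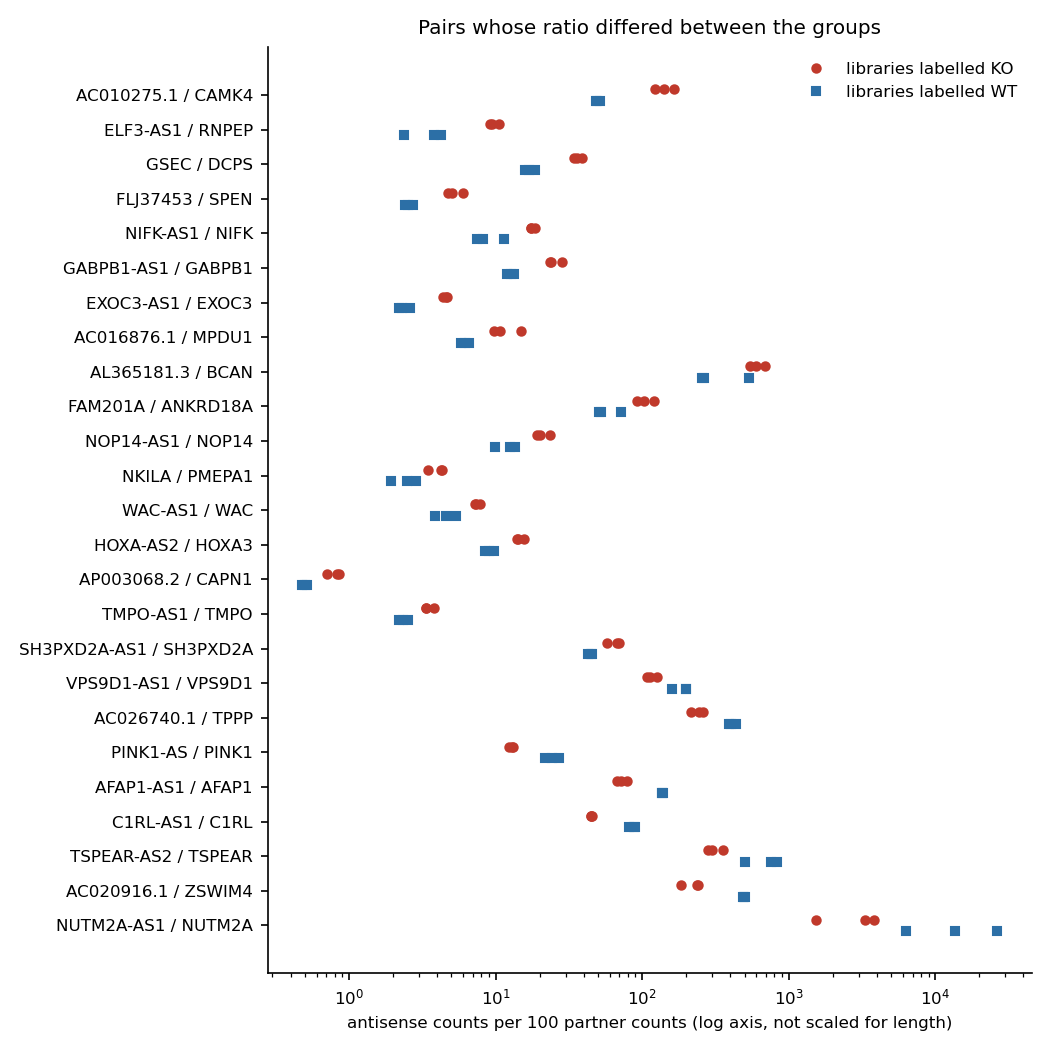
Counts of the antisense RNA per 100 counts of its partner (log axis, not scaled for length) in each library, for the 25 pairs whose ratio differed, KO in red circles above WT in blue squares, ordered by the change of the ratio. The upper 17 pairs have KO points to the right of the WT points and the lower 8 to the left.

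Among the pairs with a lower ratio in KO libraries, it was often the partner that was higher. PINK1-AS had 4.55, 4.67 and 4.68 CPM in the KO libraries, against 4.63, 4.38 and 4.35 CPM in the WT libraries, with overlapping groups. PINK1, the kinase that marks damaged mitochondria for removal, had 35.1, 37.5 and 35.4 CPM in the KO libraries, against 17.1, 20.2 and 18.0 CPM in the WT libraries. The log2 change of the ratio was -0.91. However, under 50% of the exon bases of PINK1-AS are free of exons of other genes on either strand, and 42.9% lie in exons of PINK1. The genes that PINK1-AS overlaps include DDOST on its own strand. C1RL-AS1 likewise was not called at 15.8 ± 1.32 CPM in KO libraries and 14.6 ± 0.6 CPM in WT libraries, beside C1RL, a gene of a complement-related protease, at 35.1 ± 3.04 CPM in KO libraries and 16.9 ± 0.675 CPM in WT libraries.

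In 2 other pairs, whose ratio call held without each library, the RNA was lower and the partner higher. AC020916.1 had 21.8, 20.6 and 21.1 CPM in the KO libraries, against 31.3, 27.0 and 26.5 CPM in the WT libraries, while ZSWIM4 had a log2 fold change of 0.76. AFAP1-AS1 had 79.1, 67.8 and 71.3 counts per 100 counts of AFAP1, an actin-filament adaptor gene, in the KO libraries, against 136.9, 138.4 and 136.1 in the WT libraries. There the RNA outnumbered its partner in WT libraries and not in KO libraries, before any scaling for length. VPS9D1-AS1 with VPS9D1, at a ratio change of -0.67, moved the same way but missed the threshold without KO library 1 (adjusted p = 0.0615), WT library 1 (0.0638) or WT library 3 (0.0573), all by edgeR's quasi-likelihood test. AC026740.1 with TPPP missed it without any 1 library, with adjusted p-values between 0.0769 and 0.131 by that test, TSPEAR-AS2 without 4 of them at up to 0.0719, and NUTM2A-AS1 without KO library 1 at 0.0715, its partner NUTM2A having only 0.752 ± 0.418 CPM in KO libraries and 0.182 ± 0.136 CPM in WT libraries.

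The RNAs were also counted by position relative to the partner, against 26.7% higher and 25.9% lower over all genes tested, and 11.2% higher and 5.15% lower over all ratios tested. Of the 42 head to head RNAs 17 were higher (40.5%) and 5 lower (11.9%), with a median log2 fold change of 0.23, and 29 of them start within 1000 bases of the partner's start. Their ratio to the partner was called higher in 9 of 39 pairs (23.1%) and lower in 1 (2.56%), and RNA and partner were called in the same direction in 9 pairs and in opposite directions in 3. Of the 27 RNAs inside the partner 12 were higher (44.4%) and 7 lower (25.9%), with a median of 0.20, and the changes of RNA and partner correlated with a Pearson r of 0.62 over 24 pairs, as a description. Of the 34 tail to tail RNAs 10 were higher (29.4%) and 7 lower (20.6%), with a median of 0.05 and a Pearson r of 0.14 over 30 pairs. Of the 12 around the partner 1 was higher and 1 lower, and of the 9 with no partner 3 were higher and 1 lower. No test of these differences between classes was made.

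**Figure D5:**
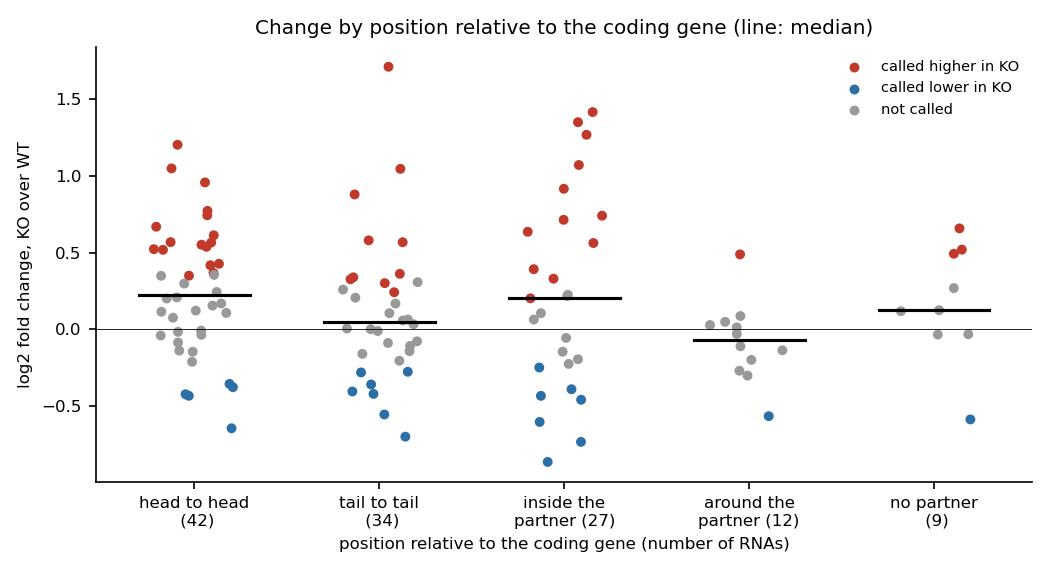
Log2 fold change, KO over WT, of the antisense RNAs by position relative to the partner, 1 point per RNA, red for called higher, blue for called lower and grey for not called, with a line at the class median. The medians are 0.23 head to head, 0.05 tail to tail, 0.20 inside the partner, -0.07 around it and 0.12 with no partner.

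The 4 head to head RNAs with the printed promoters were chosen among those called, and all are higher, whereas 20 of the 42 were not called. NNT-AS1 (chromosome 5, 43571594 to 43603230, minus strand) starts 538 bases from NNT, the gene of the mitochondrial transhydrogenase that makes NADPH. It had 9.21, 9.34 and 10.5 CPM in the KO libraries, against 4.48, 3.72 and 4.48 CPM in the WT libraries, and NNT averaged 30.2 ± 2.75 CPM in KO libraries and 18.0 ± 0.739 CPM in WT libraries. Both were higher, with log2 fold changes of 1.20 and 0.74, and the ratio was not called (0.46 ± 0.20, SE). ZNF503-AS2 and ZNF503, a zinc-finger repressor gene, were both higher too, at 1.05 and 0.69.

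GATA2-AS1 and GATA2, the gene of a transcription factor of blood and endothelial development, had nearly the same change, at 0.77 and 0.80. GATA2-AS1 had 6.70, 6.03 and 4.58 CPM in the KO libraries, against 2.62, 4.01 and 3.41 CPM in the WT libraries, and the groups did not overlap. NKILA, an RNA known to hold NF-kB in the cytoplasm, had 5.42, 5.21 and 4.34 CPM in the KO libraries, against 2.31, 3.05 and 3.58 CPM in the WT libraries, while PMEPA1, a target of TGF-beta signalling, was not called, with a log2 fold change of 0.03. The ratio of NKILA to PMEPA1 was called at 0.72, but missed the threshold without KO library 1 (adjusted p = 0.087), KO library 2 (0.0542), WT library 1 (0.106) or WT library 2 (0.0594) by edgeR's quasi-likelihood test.

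Further head to head RNAs, named after their values were seen, were higher while the partner was not called. WAC-AS1 had 10.4, 10.4 and 10.2 CPM in the KO libraries, against 7.89, 6.58 and 5.74 CPM in the WT libraries, and AP003068.2 had 5.94, 6.92 and 6.86 CPM in the KO libraries, against 3.87, 4.42 and 4.17 CPM in the WT libraries. Their partners, WAC, a regulator of histone ubiquitination, and CAPN1, a calcium-dependent protease, had log2 fold changes of -0.08 and -0.01. The ratio to WAC was lost without WT library 3 (adjusted p = 0.0636 by edgeR's quasi-likelihood test). On the lower side TMEM161B-AS1 and AC008966.1 ran with their partners, at -0.43 and -0.42 beside -0.30 for TMEM161B and -0.72 for the molybdenum cofactor gene MOCS2.

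Among the RNAs inside a gene, 3 came from 1 locus, chosen here after their values were seen. DLGAP1-AS1, DLGAP1-AS2 and AP002478.1 lie on the plus strand of chromosome 18 between 3593732 and 3656282, almost wholly within introns of DLGAP1, a gene of the neuronal synapse. DLGAP1-AS1 had 13.7, 11.9 and 13.3 CPM in the KO libraries, against 7.97, 7.51 and 8.29 CPM in the WT libraries. DLGAP1-AS2 averaged 14.7 ± 0.409 CPM in KO libraries and 9.93 ± 0.289 CPM in WT libraries, and AP002478.1 averaged 11.1 ± 0.586 CPM in KO libraries and 6.62 ± 0.16 CPM in WT libraries. Their log2 fold changes were 0.71, 0.56 and 0.74. DLGAP1 itself was too low for the filter used here, at 0.214 ± 0.104 CPM in KO libraries and 0.0126 ± 0.0219 CPM in WT libraries. The authors' table called it higher, on counts of 6, 6 and 3 in the KO libraries and 1, 0 and 0 in the WT libraries.

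A list of 72 antisense and related RNAs studied elsewhere was counted as well. It was drawn up with earlier results of these data known, and many of its RNAs are not annotated as antisense in the files. Of these 68 are in the table and 58 were tested, with 22 higher (37.9%), 8 lower (13.8%) and a median log2 fold change of 0.27. Over all genes tested 26.7% were higher and 25.9% lower, and over the antisense genes tested 20.0% and 8.23%. Only 13 of them belong to the 124, 5 higher and 1 lower: FGD5-AS1, HOXA-AS2, NNT-AS1, UBA6-AS1 and GABPB1-AS1 were higher and AFAP1-AS1 lower. UBA6-AS1 had 7.98, 7.70 and 8.02 CPM in the KO libraries, against 5.77, 5.61 and 5.51 CPM in the WT libraries. TMPO-AS1, THUMPD3-AS1, NUTM2A-AS1, MCM3AP-AS1, HCG18, FAM83A-AS1 and PAXIP1-AS2 were not called, with log2 fold changes between -0.20 and 0.26. THUMPD3-AS1 passed the threshold only without KO library 2, with a log2 fold change of -0.30 and an adjusted p of 0.0192 by edgeR's quasi-likelihood test.

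The counting itself bears on these values. The library kit does not mark strand, and antisense genes wholly covered by exons of the other strand had almost no counts. Of 316 antisense genes lying wholly within exons of opposite-strand genes 1 had any count, and 0 of the 237 among them whose opposite gene was at 4 CPM or more, whereas 63.6% of 3878 antisense genes with at least 75% unshared exon bases had counts. The 124 RNAs had a median of 92.3% of exon bases unshared, 24 had all of them unshared and 4 had under 50%. Reads of the partner's unspliced RNA that fall on an antisense exon inside a partner intron cannot be told apart from reads of the antisense RNA. Over the 39 pairs with at least 50% of the exon bases in partner introns, the changes of RNA and partner had a Pearson r of 0.53 and 9 ratios were called, against a Pearson r of 0.22 and 16 called ratios in the 63 other pairs; the part of such reads in the results was not tested. Per kilobase of unshared exon, the RNA was above its partner in 37 of the 102 pairs in KO libraries and in 35 in WT libraries, and the median RNA was at 45.5% of the level of its partner in KO libraries and 36.4% in WT libraries.

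The RNAs with no overlapping partner include some that start close to a coding gene on the other strand without overlapping it. RHPN1-AS1, Z95115.1 and AL050341.2, named after their values were seen, start 339, 32 and 140 bases from RHPN1, TFIP11 and ZMPSTE24. RHPN1-AS1 had 5.37, 6.5 and 4.99 CPM in the KO libraries, against 3.87, 4.31 and 3.54 CPM in the WT libraries. Z95115.1 averaged 4.97 ± 0.171 CPM in KO libraries and 3.16 ± 0.385 CPM in WT libraries, and AL050341.2 averaged 5.20 ± 0.405 CPM in KO libraries and 3.67 ± 0.576 CPM in WT libraries. All 3 were called higher, with log2 fold changes of 0.52, 0.66 and 0.49, although AL050341.2 missed the threshold without WT library 3 (adjusted p = 0.0657 by edgeR's quasi-likelihood test). RHPN1 and TFIP11, a splicing factor gene, were not called, at log2 fold changes of 0.04 and -0.10, and ZMPSTE24, the protease that matures lamin A, was lower at -0.42. OTUD6B-AS1, MAFG-DT, LINC01137 and MHENCR start 7, 115, 141 and 186 bases from OTUD6B, MAFG, ZC3H12A and GMEB2, and none of these RNAs was called. OTUD6B, ZC3H12A and GMEB2 were lower, at log2 fold changes of -0.38, -0.52 and -0.21, and MAFG was not called. Of the others, AC136475.3 had 18.2, 20.5 and 18.2 CPM in the KO libraries, against 20.4, 20.4 and 17.3 CPM in the WT libraries, with overlapping groups and no call. AC006329.1 was lower, with 5.01, 4.94 and 4.03 CPM in the KO libraries, against 7.36, 6.91 and 6.59 CPM in the WT libraries.

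Some partners with strong levels differed beside an RNA that was not called, as in the following pairs named after their values were seen. KRT7, a keratin of ductal epithelium, averaged 775.4 ± 24.5 CPM in KO libraries and 602.8 ± 23.9 CPM in WT libraries, a log2 fold change of 0.36. KRT7-AS, inside it, had 3.94, 4.98 and 3.89 CPM in the KO libraries, against 5.65, 4.38 and 4.12 CPM in the WT libraries, and these groups overlapped. SREBF2, the transcription factor of cholesterol synthesis, had a log2 fold change of 0.47, while SREBF2-AS1 averaged 6.48 ± 0.707 CPM in KO libraries and 6.55 ± 0.806 CPM in WT libraries. The log2 change of the ratio was -0.51 ± 0.19 for KRT7-AS and -0.49 ± 0.17 for SREBF2-AS1 (SE), and neither was called, with adjusted p-values of 0.0655 and 0.0591 by edgeR's quasi-likelihood test. TMPO-AS1, head to head with TMPO, the gene of a nuclear lamina protein, averaged 6.18 ± 0.381 CPM in KO libraries and 5.20 ± 0.39 CPM in WT libraries and was not called. TMPO was lower at -0.32, and the ratio was called at 0.57, but it held only without KO library 3, with adjusted p-values of up to 0.122 by that test when another library was left out.

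Of the 11 RNAs on chromosome 5, 4 were higher and 4 lower, against 26.7% higher and 25.9% lower over all genes tested. The tested genes of this chromosome had a median log2 fold change of -0.20, but the shares called among them were not counted. With so few RNAs the counts are a description only. NNT-AS1, LUCAT1 and EXOC3-AS1 were higher there, together with the weaker call of AC010275.1. AC008966.1, TMEM161B-AS1, NR2F1-AS1 and AC026740.1 were lower, of which NR2F1-AS1 missed the threshold without KO library 1 (adjusted p = 0.101), KO library 2 (0.120), WT library 1 (0.126) or WT library 2 (0.0950), by edgeR's quasi-likelihood test.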

How the data were processed

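Counts, levels and tests rest on the tables that the authors deposited. Raw read counts per gene and library were deposited by the authors in 1 table, and a second table of theirs, per the file headers, repeats the counts beside normalised signal and FPKM columns, log2 fold changes and p-values of their own comparison. The deposited signal and FPKM values were not used. The deposited log2 fold changes and p-values were used only for the calls of the authors' table. The kit, NEBNext Ultra RNA per the labels' protocols, keeps no strand information. The submitters' processing notes name fastp, HISAT2, STAR and DESeq, and the builds GRCh38 and hg38. How reads were counted, and with which strand setting, is not given in the sources used here. All 58735 genes have the position of GENCODE release 29, whose exons gave the overlaps.

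Libraries were grouped by title and genotype label, 3 KO and 3 WT. Counts were tested with edgeR 4.0.16 in R 4.3.3 by glmQLFit and glmQLFTest, two-sided and with no other term than group, with TMM scaling, after filterByExpr at a minimum count of 10 and a minimum total of 15, and adjusted by Benjamini-Hochberg over 16655 genes at a threshold of 0.05. Levels are TMM-scaled CPM, mean ± SD. The partner of an antisense gene is the coding gene on the opposite strand sharing most bases with it (at least 1). Ratios were tested with edgeR on both counts of each library with a term per library, adjusted over 699 pairs. The steps were tested on simulated data. The biological coefficient of variation was 0.0498.

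The members, gene lists and rules were chosen with earlier results of these data known. Named RNAs are the 6 with the highest mean CPM, the 8 highest and 8 lowest called changes and called ratios, 3 on each side of the limit, the 2 most abundant of each position class and the listed RNAs; others were named after their values were seen. Alternatives were other scaling factors, filters, limits and thresholds, DESeq2 1.42.0, limma 3.58.1 on log2 ratios (prior count 2), the replicate number as a block and leaving out each library. No 2 libraries were duplicates: within a group their counts gave a chi-square of 2.40 to 6.20 per degree of freedom.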

Additional observations from a re-analysis of the deposited data

How the results depend on the processing

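No called RNA changed direction under any alternative. Over the 46 named RNAs and 12 settings 536 values stayed on their side of the threshold, 14 missed it and 2 passed it only there. Many of these RNAs were named for a high level or a large called change, so this count does not stand for the rest. Without each library in turn, 48 of all 64 calls held every time, and 14 of the 25 ratio calls. Of the 64 called RNAs, 64 stayed called with DESeq2 size factors in edgeR, 61 with upper-quartile factors, 59 with no filter, 62 with a filter of 50 counts in 3 libraries and 58 with DESeq2. A mean CPM limit of 2 took in 257 RNAs, with 115 called (80 higher, 35 lower), and a limit of 8 took in 52, with 29 called (17 higher, 12 lower). Without each library in turn, 54 to 62 RNAs were called (37 to 43 higher, 15 to 20 lower), 53 to 60 partners (23 to 29 higher, 29 to 32 lower) and 7921 to 8221 genes (3980 to 4182 higher, 3872 to 4108 lower). The ratio was called in 17 to 24 pairs (12 to 16 higher, 5 to 8 lower) of these RNAs and in 57 to 92 of all pairs, with 57 without KO library 1, 74 without WT library 1 and 75 without KO library 3, against 114 with all libraries. With a filter of 50 counts in 3 libraries 38 ratios of 87 were called (27 higher), and 84 of all 197 pairs. At an adjusted p threshold of 0.01, 15 were called (10 higher, 5 lower) and 48 of all pairs. All 25 ratio calls held with limma on log2 ratios.

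Same-numbered KO and WT libraries did not deviate together (correlations 0.0110, 0.0210 and -0.0179), so the numbers were not taken as pairs. With the replicate number as a block, 59 RNAs (40 higher, 19 lower), 59 partners and 22 ratios (15 higher, 7 lower) were called. Depth limits the RNAs near 4 CPM most, since they had as few as 50 counts in a library.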
